A study of Mus musculus with 12 samples.

Results

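The 10 genes described here encode transcription factors that specify the cerebellar granule lineage or move it toward neurons: Atoh1, Pax6, Barhl1, Zic1, Zic2, Zic4, Meis1, Neurod1, Etv1 and Insm1. They were taken by symbol from the deposited P3 table, and all 10 were found among its 31091 genes. RNA came from granule cell progenitors of mice at postnatal day 3 (P3), with 3 libraries from control mice, whose genotype is given as WT, and 3 from Znhit3 conditional knockout (cKO) mice. ZNHIT3 is a zinc finger protein that helps assemble small nucleolar ribonucleoproteins. The series also has 3 control and 3 cKO samples at postnatal day 6, not analysed here. The sources used here do not name the Cre driver, the cells it acts in, the strain or any pooling of animals. Nothing states that replicates were separate animals, so every p-value below reflects sample-to-sample spread that could be technical. The libraries held between 29119803 and 52961445 counted reads. Znhit3 itself measured 9.15, 8.62 and 8.58 FPKM (fragments per kilobase of gene length, scaled to library size) in control and 4.03, 4.01 and 4.57 FPKM in cKO, so the labels of the groups held for the targeted gene.

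Granule cell progenitors arise at the rhombic lip, spread over the cerebellar surface and divide there in response to Sonic hedgehog before they leave the cycle and migrate inward. The bHLH factor ATOH1 gives them their identity and keeps them dividing, and PAX6, BARHL1, MEIS1 and the ZIC zinc finger proteins mark the lineage before and after cell cycle exit. NEUROD1, a second bHLH factor, drives differentiation and survival of the neurons. INSM1 is a zinc finger factor of cells that are turning from division to differentiation, and ETV1 is an ETS factor that acts in maturing granule neurons.

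Barhl1, Neurod1 and Pax6 were lower in cKO, and their promoters are shown because the results turn on them. Sequences are from RefSeq on GRCm38.p6, where 8 of the 10 genes, all but Zic2 and Insm1, were matched by symbol in 11 windows. Each line gives the 250 bases before an annotated start, 5′ to 3′ on the gene's strand, with the E-boxes CAGCTG and CAGATG in capitals, searched on both strands. E-boxes are the class of site that bHLH proteins such as ATOH1 and NEUROD1 bind.
Barhl1, first start (chr2:28916669-28916918, minus strand): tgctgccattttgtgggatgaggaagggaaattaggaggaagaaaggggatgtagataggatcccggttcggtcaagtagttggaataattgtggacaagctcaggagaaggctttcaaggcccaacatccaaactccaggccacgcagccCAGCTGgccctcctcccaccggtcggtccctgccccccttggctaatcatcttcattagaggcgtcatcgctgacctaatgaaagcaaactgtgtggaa
Barhl1, second start (chr2:28912496-28912745, minus strand): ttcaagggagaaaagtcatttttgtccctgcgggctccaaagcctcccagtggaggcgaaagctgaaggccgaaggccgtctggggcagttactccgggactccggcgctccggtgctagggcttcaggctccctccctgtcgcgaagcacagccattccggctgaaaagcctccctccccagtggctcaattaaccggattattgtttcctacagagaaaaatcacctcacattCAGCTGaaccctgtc
Neurod1 (chr2:79456637-79456886, minus strand): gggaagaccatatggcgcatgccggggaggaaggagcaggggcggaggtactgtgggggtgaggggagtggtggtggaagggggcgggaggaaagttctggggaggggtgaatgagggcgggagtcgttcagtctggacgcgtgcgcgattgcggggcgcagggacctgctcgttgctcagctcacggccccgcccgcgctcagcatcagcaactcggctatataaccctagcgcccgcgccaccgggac
Pax6, first start (chr2:105668646-105668895, plus strand): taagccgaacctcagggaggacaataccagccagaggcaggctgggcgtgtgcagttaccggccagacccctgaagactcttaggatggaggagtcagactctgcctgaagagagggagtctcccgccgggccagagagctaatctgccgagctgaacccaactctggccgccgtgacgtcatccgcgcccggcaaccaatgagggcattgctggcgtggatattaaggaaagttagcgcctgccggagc
Pax6, second start (chr2:105682213-105682462, plus strand): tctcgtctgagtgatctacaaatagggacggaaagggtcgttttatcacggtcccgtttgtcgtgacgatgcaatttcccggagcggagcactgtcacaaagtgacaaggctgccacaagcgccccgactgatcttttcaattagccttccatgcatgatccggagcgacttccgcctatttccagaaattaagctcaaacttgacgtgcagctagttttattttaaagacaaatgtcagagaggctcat

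Each Barhl1 window held 1 CAGCTG, beginning 99 bases before the first start and 15 bases before the second. The Neurod1 window and both Pax6 windows held neither motif in these letters. Of the other 5 members with a window, Etv1 had a match, 1 CAGATG (read as CATCTG) in 1 of its 2 windows, and Atoh1, Zic1, Zic4 and Meis1 had none. Among 32851 promoter windows of the same length, 13% held CAGCTG and 14.4% held CAGATG. These matches describe the letters and are not sites of binding.

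All 10 genes had a mean over the 6 libraries above the 1 FPKM needed for testing, and all 10 averaged lower in cKO than in control, as did 42.1% of tested genes. Barhl1, Neurod1 and Pax6 passed limma's test (Benjamini-Hochberg adjusted p under 0.05 over 13538 genes), and the other 7 did not. Over all tested genes 19.1% were called, 5.74% lower and 13.4% higher. None of the members was higher: 0 passed in limma, 0 at an unadjusted p under 0.05, 0 with limma's voom on reads recovered from the FPKM, and 0 in the authors' deposited table. For 8 of the 10 the highest cKO library was under the lowest control library, an order shown by 13.2% of tested genes. The reverse order was shown by 27.3%, so the groups were apart in 40.5% of tested genes. Differences below are cKO minus control in log2(FPKM + 1), a scale that understates changes of low genes. They ran from -0.56 to -0.09 with a median of -0.17, beside a median of 0.03 over all tested genes. Among the 2856 genes that averaged 20 FPKM or more, a level chosen after the values were seen, the median was -0.05 and 13.0% were called lower. In bulk RNA fewer cells of a type and less RNA per cell cannot be told apart.

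**Figure D1:**
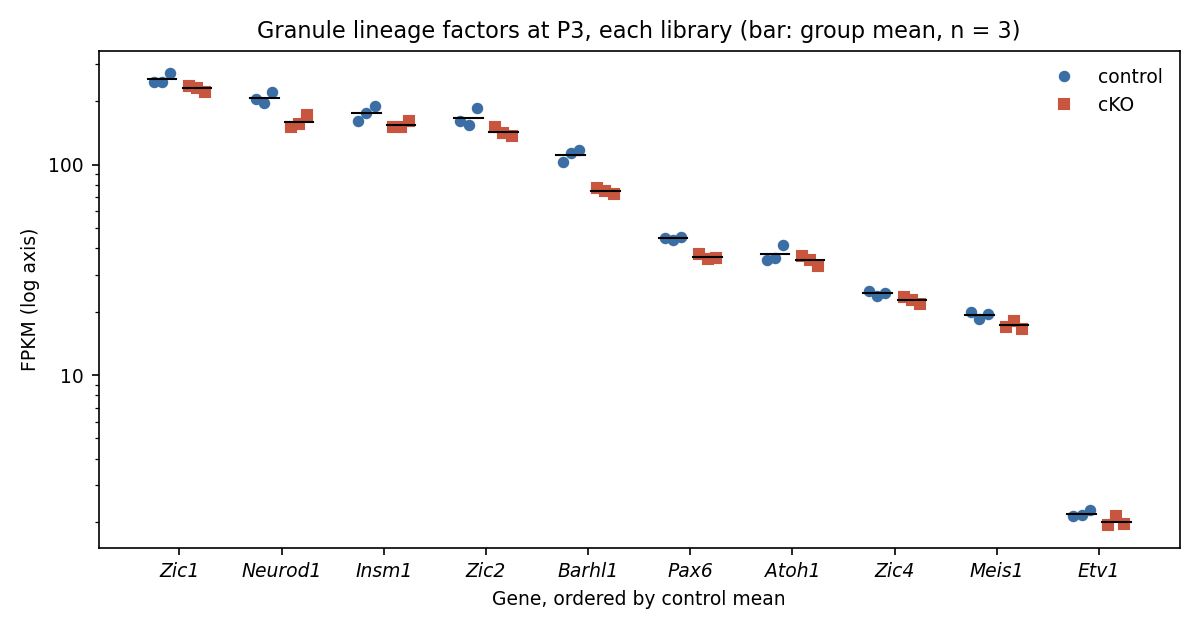
FPKM on a log axis of the 10 granule lineage factor genes in each P3 library, with control as circles, cKO as squares and bars for the means of 3 libraries. The 2 groups are apart for 8 genes, with the widest gap for Barhl1 (111 and 74.8 FPKM), and overlap for Atoh1 and Etv1.

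The factors spanned a wide range of levels per length. In control libraries Zic1 was highest, followed by Neurod1, Insm1, Zic2, Barhl1, Pax6, Atoh1, Zic4, Meis1 and Etv1. Only Insm1 and Zic2 overlapped as neighbours in that order. In cKO libraries the order of the means was the same, but there Neurod1 overlapped Insm1, and Pax6 overlapped Atoh1. Zic1 was the gene with the 118th highest control mean of the 13538 tested and Etv1 the 11071st. Reads per library ran from 36693 to 81792 for Zic1 and from 760 to 1613 for Etv1.

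Atoh1 (ENSMUSG00000073043, chromosome 6, 64706109 to 64708229, plus strand; positions here are as deposited, with no build stated for them) measured 35.4, 35.9 and 41.3 FPKM in control and 37.0, 35.3 and 32.8 FPKM in cKO. The groups overlapped, and control replicate 3 stood above the other control libraries. The means were 37.5 ± 3.3 and 35.0 ± 2.1 FPKM (SD, n = 3), with p = 0.4 in a two-sided exact permutation test. The difference was -0.09 with a 95% interval from -0.26 to 0.07 and a limma adjusted p of 0.36. Without control replicate 3 the difference was -0.03.

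Barhl1, a homeodomain gene needed for granule cell migration and survival (ENSMUSG00000026805, chromosome 2, 28797691 to 28806680, minus strand), showed the largest difference of the 10. It measured 103, 113 and 117 FPKM in control and 77.3, 74.6 and 72.6 FPKM in cKO. Every cKO library lay well under the lowest control library. The mean fell from 111 ± 7.2 to 74.8 ± 2.4 FPKM (SD, n = 3), which is 67.4% of the control level. The difference was -0.56 ± 0.06 (SE) with a limma adjusted p of 0.0011, while p was 0.1 in the two-sided exact permutation test, the lower limit for 3 against 3 samples. In rank by p Barhl1 was number 107 of all tested genes, and number 82 from the lowest difference.

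Pax6, a paired-box factor of progenitors and young granule neurons (ENSMUSG00000027168, chromosome 2, 105499245 to 105527709, plus strand), had the tightest control values of the called members. They were 44.6, 43.8 and 45.4 FPKM, against 37.5, 35.7 and 36.0 FPKM in cKO. The groups did not overlap, and the cKO mean was 81.5% of the control mean. The difference was -0.29 ± 0.04 (SE) with a limma adjusted p of 0.0035. Meis1, a TALE homeodomain factor known to act upstream of Pax6 (ENSMUSG00000020160, chromosome 11, 18829817 to 18968985, minus strand), measured 19.9, 18.4 and 19.5 FPKM in control and 16.98, 18.1 and 16.6 FPKM in cKO. The groups were apart by a narrow gap between control replicate 2 and cKO replicate 2. The difference of Meis1 was -0.15 with a 95% interval from -0.27 to -0.04 and a limma adjusted p of 0.070, so it was not called.

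The 3 ZIC genes were not called, although their groups did not overlap. Zic1 (ENSMUSG00000032368, chromosome 9, 91240111 to 91247863, minus strand) measured 246, 248 and 271 FPKM in control and 237, 232 and 221 FPKM in cKO. Zic2 (ENSMUSG00000061524, chromosome 14, 122712847 to 122717264, plus strand) measured 161, 154 and 186 FPKM in control and 150.5, 142 and 136 FPKM in cKO. Zic4 (ENSMUSG00000036972, chromosome 9, 91244466 to 91271401, plus strand) measured 25.1, 23.7 and 24.6 FPKM in control and 23.6, 22.8 and 21.7 FPKM in cKO. In all 3 genes cKO replicate 3 was the lowest library, and in Zic1 and Zic2 control replicate 3 was the highest.

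The limma differences were -0.15 for Zic1 (95% interval -0.27 to -0.02, adjusted p = 0.097), -0.22 for Zic2 (-0.39 to -0.05, adjusted p = 0.074) and -0.11 for Zic4 (-0.21 to 0.002, adjusted p = 0.15). The difference of Zic1 was 0.0083 with quantile normalization, so its direction turned with that scaling. Without control replicate 3 the difference of Zic2 was -0.14 (adjusted p = 0.16), and with quantile normalization it was -0.13. Zic1 and Zic4 lie head to head and overlap by 3398 bases on opposite strands. No source used here says whether counting used strand, so reads of the shared stretch cannot be told apart. The ratio of Zic4 to Zic1 within a library was 0.10, 0.096 and 0.091 in control and 0.10, 0.099 and 0.098 in cKO, and these ranges overlapped.

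Neurod1 (ENSMUSG00000034701, chromosome 2, 79282865 to 79287095, minus strand) measured 205, 195 and 221 FPKM in control and 151, 157 and 173 FPKM in cKO. The groups did not overlap, and cKO replicate 3 came nearest to control. The mean fell from 207 ± 13 to 160 ± 11 FPKM (SD, n = 3), or to 77.2% of control, with a difference of -0.37 ± 0.07 (SE) and a limma adjusted p of 0.0092. The whole span of Neurod1 lies within the annotated span of Cerkl on the same strand. Cerkl, a ceramide kinase-like gene, was at 0.64 and 0.52 FPKM in control and cKO, under the filter.

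Insm1 (ENSMUSG00000068154, chromosome 2, 146063841 to 146066940, plus strand) measured 161, 177 and 191 FPKM in control and 151, 152 and 161 FPKM in cKO. The lowest control library and the highest cKO library were nearly level. The difference of Insm1 was -0.19 with a 95% interval from -0.34 to -0.03 and a limma adjusted p of 0.083, and without control replicate 1, the lowest control, it was -0.25 with an adjusted p of 0.033. Etv1 (ENSMUSG00000004151, chromosome 12, 38829379 to 38920483, plus strand) was the least abundant member, at 2.13, 2.16 and 2.29 FPKM in control and 1.93, 2.13 and 1.96 FPKM in cKO. Its groups overlapped at cKO replicate 2, with p = 0.2 in a two-sided exact permutation test. The Etv1 difference was -0.09 (95% interval -0.23 to 0.06, limma adjusted p = 0.37).

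**Figure D2:**
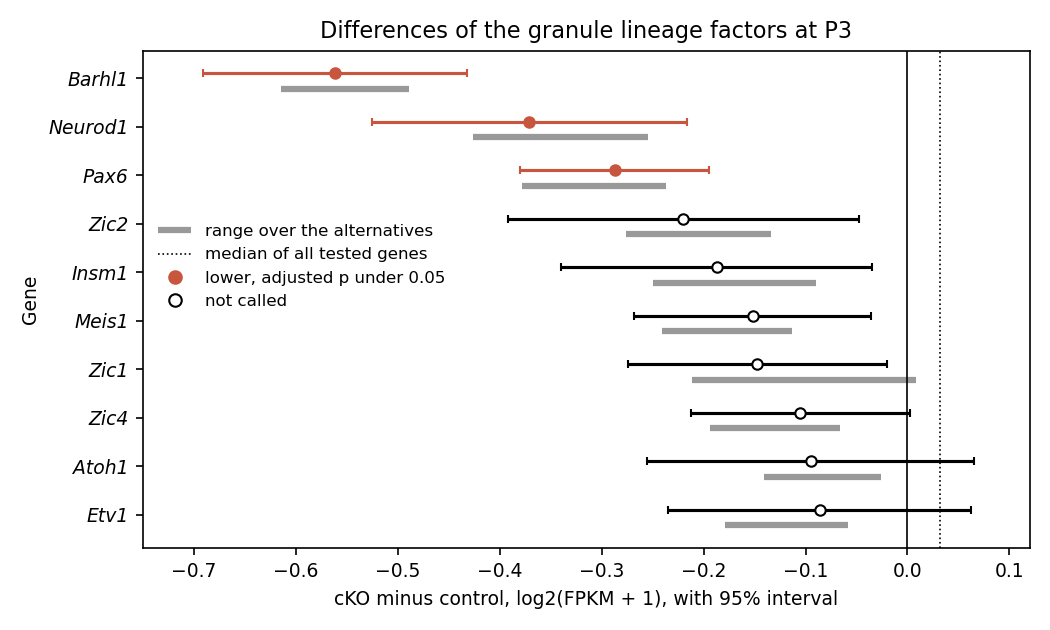
Difference of cKO minus control in log2(FPKM + 1) for each of the 10 genes, with 95% intervals, filled points for those with an adjusted p under 0.05, and grey bars for the range over the alternative settings. The intervals of Barhl1, Neurod1 and Pax6 end at -0.43, -0.22 and -0.20, whereas those of Atoh1, Etv1 and Zic4 include 0, and the grey bar of Zic1 crosses 0.

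The count of lower members depended on the method. Voom on the recovered reads called 8 of the 10 lower, all but Atoh1 and Etv1, beside 12.1% of all tested genes. The authors' deposited table called the same 8 genes lower at an adjusted p under 0.05, beside 13.4% of the genes tested here, with log2 fold changes of -0.62 for Barhl1, -0.43 for Neurod1, -0.35 for Pax6, -0.28 for Zic2, -0.25 for Insm1, -0.21 for Meis1, -0.20 for Zic1 and -0.16 for Zic4. In that table Atoh1 had a log2 fold change of -0.15 with an adjusted p of 0.11 and Etv1 one of -0.18 with an adjusted p of 0.10. Removal of a gene length trend gave 6 lower members, adding Zic1, Zic4 and Meis1, beside 7.62% of tested genes. Array weights gave 5, adding Zic2 and Insm1, beside 8.66%. A fit to protein-coding genes only, chosen after seeing the data, gave 4, adding Zic2, beside 7.69%, and the fit without control replicate 1 gave 4, adding Insm1, beside 4.95%. Barhl1, Neurod1 and Pax6 were called under each of the 18 alternative settings. Over these settings the largest limma adjusted p was 0.010 for Barhl1, 0.023 for Pax6 and 0.046 for Neurod1, close to the threshold.

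Ratios between members within a library do not depend on the scaling of that library. Barhl1 to Atoh1 was 2.91, 3.15 and 2.83 in control and 2.09, 2.11 and 2.21 in cKO, with no overlap. Neurod1 to Atoh1 was 5.80, 5.44 and 5.36 in control and 4.09, 4.43 and 5.26 in cKO, where cKO replicate 3 came close to control. Pax6 to Atoh1 was 1.26, 1.22 and 1.10 in control and 1.01, 1.01 and 1.10 in cKO, a narrow gap. Barhl1 to Pax6 was between 2.31 and 2.59 in control and between 2.02 and 2.09 in cKO, so Barhl1 had the larger drop of this pair in these libraries. Insm1 to Neurod1 was higher in each cKO library (0.93 to 1.00) than in each control library (0.78 to 0.90). Neurod1 to Pax6 and Zic1 to Zic2 overlapped between the groups. These ratios are descriptions and were not tested.

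**Figure D3:**
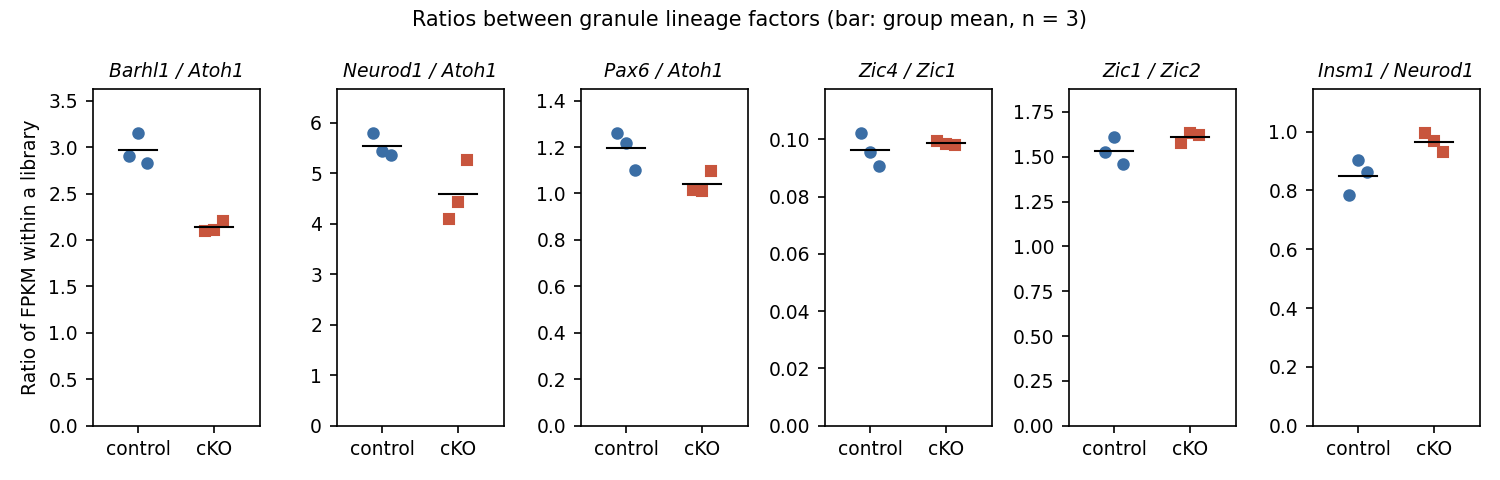
Ratio of FPKM between pairs of granule lineage factors within each P3 library, control as circles and cKO as squares, with bars for the means of 3 libraries. Barhl1 to Atoh1 averages 2.96 in control and 2.14 in cKO without overlap, and Zic4 to Zic1 and Zic1 to Zic2 overlap.

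Most genes beside the members averaged lower in cKO, and Gm13394 averaged higher. Limma called A930019D19Rik lower and Gm13394 higher. Gm37477, within Zic4 on the opposite strand, was at 6.81 FPKM in control and 5.80 FPKM in cKO (limma adjusted p = 0.21). Gm16140 (0.67 and 0.41 FPKM) and Gm16141 (1.30 and 0.65 FPKM), antisense to Meis1, were under the filter. The long non-coding gene 2610035F20Rik, which starts 232 bases from Zic2 on the opposite strand, was at 19.2 FPKM in control and 16.2 FPKM in cKO (limma adjusted p = 0.069). Pax6os1, antisense to the first 1431 bases of Pax6, was at 1.34 FPKM in control and 1.32 FPKM in cKO (adjusted p = 0.94), and its direction turned under several settings. A930019D19Rik, which starts 37365 bases from Insm1 on the same strand, fell from 2.86 to 1.44 FPKM (adjusted p = 0.0032). The pseudogene Gm13394, which starts 17941 bases from Barhl1, rose from 134 to 215 FPKM (adjusted p = 0.0065), and its reads can be shared with a parent gene.

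Among paralogs of the members, called genes included Insm2 and Meis3. Zic5 measured 48.1 and 44.96 FPKM and was not called. Insm2 fell from 7.05 to 5.08 FPKM (difference -0.41, adjusted p = 0.0082). Meis3 fell from 13.96 to 12.1 FPKM (adjusted p = 0.038), but that p was between 0.055 and 0.11 without any 1 of the 6 libraries, 0.088 with no filter, 0.054 with TPM scaling, 0.051 without the intensity trend and 0.091 with the replicate block. Barhl2 measured 23.7 and 21.0 FPKM and was not called, and Meis2 was under the filter.

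Of 15 partners and antagonists of proneural bHLH factors, 3 rose and 2 fell, with a median of 0.06. Over all tested genes 13.4% were called higher and 5.74% lower. Id3 rose from 47.1 to 59.6 FPKM (adjusted p = 0.0047) and Id4 from 12.8 to 16.8 FPKM (adjusted p = 0.011). The other ID genes were not called, with Id1 at 53.0 FPKM in control and 51.2 FPKM in cKO and Id2 at 57.9 and 51.1 FPKM. ID proteins bind E proteins and keep them from pairing with factors such as ATOH1. The Notch effector gene Hes5 rose from 3.84 to 5.42 FPKM (adjusted p = 0.027), and that p became 0.086 without cKO replicate 2, 0.072 without cKO replicate 3, 0.098 with no filter on low values and 0.068 with quantile normalization. Nhlh1, a bHLH gene of granule cells leaving the cycle, fell from 63.9 ± 2.9 to 51.3 ± 0.67 FPKM (SD, n = 3; adjusted p = 0.0040). The E protein genes Tcf3, Tcf4 and Tcf12 were not called, nor was Huwe1, whose product is a ubiquitin ligase for ATOH1. Among 5 TALE partners of MEIS1, only Pknox2 was called (1.92 and 2.43 FPKM, adjusted p = 0.045), and it lost that call without any 1 of the 6 libraries (adjusted p between 0.052 and 0.13), with no filter (0.13), with quantile normalization (0.18), after removal of a length trend (0.19) and with the replicate block (0.092).

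Of 24 other transcription factors of granule progenitors and neurons, 4 rose and 1 fell, with a median of 0.01. That share is near the 19.1% called over all tested genes. Mxd3, a MYC network gene that promotes progenitor division, fell from 23.9 to 18.3 FPKM (adjusted p = 0.011). Sox2 rose from 37.0 to 47.4 FPKM (adjusted p = 0.0090). Sox9, which is also in the astroglial list, rose from 15.0 to 18.2 FPKM (adjusted p = 0.021, and between 0.054 and 0.079 without control replicate 1, control replicate 2 or cKO replicate 2, 0.062 with no filter and 0.056 with the replicate block). Gli2, an effector of Sonic hedgehog, was at 23.6 FPKM in control and 21.2 FPKM in cKO (adjusted p = 0.061). The other Sonic hedgehog effector and target genes Gli1 (35.7 and 36.2 FPKM), Mycn (80.2 and 79.5 FPKM) and Ptch1 (20.6 and 22.7 FPKM, adjusted p = 0.056) were not called either. The target Hhip rose from 2.53 to 4.39 FPKM (adjusted p = 0.0020).

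Of 14 progenitor markers that are not transcription factors, 3 rose and 3 fell, beside 13.4% called higher and 5.74% lower over all tested genes. Mfap4 was at 327 and 211 FPKM (limma adjusted p = 0.00033), and Sfrp1 was lower (limma adjusted p = 0.0066, and 0.054 with quantile normalization). Nes, an intermediate filament gene of progenitors and glia, was higher. Granule neuron differentiation had 17 tested markers, with a median of -0.04. Of these 6 had a difference above 0, and 1 was called higher, Tiam1 (4.00 and 4.80 FPKM, adjusted p = 0.040). Another 9 were not called, such as Dcx (37.1 and 38.4 FPKM), and 7 were called lower, beside 5.74% of all tested genes. Among these 7, Stmn2 fell from 83.8 to 57.6 FPKM (limma adjusted p = 0.00056) and Cbln1 from 87.6 to 63.3 FPKM (limma adjusted p = 0.0010). Tubb3, the neuronal beta-tubulin gene, fell from 332 ± 6.0 to 251 ± 11 FPKM (SD, n = 3, limma adjusted p = 0.0022). Cntn2, an adhesion molecule of granule cells that have left the cycle, fell from 49.7 to 41.2 FPKM (limma adjusted p = 0.0092). Gabra6 and Cbln3, markers of mature granule neurons, were under 1 FPKM. Grin2c, an NMDA receptor gene of mature granule neurons, measured 2.62 and 2.61 FPKM.

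Profiles like that of Barhl1 over the 6 libraries were sought among tested genes that averaged 5 FPKM or more. Genes named by a Gm number or Rik clone were left out. Likeness was the smallest Euclidean distance between log2(FPKM + 1) values centred on each gene's mean. The 5 nearest genes were Rps18, Slc29a1, Selenom, Igfbp6 and Mfap4, at distances between 0.11 and 0.14. Slc29a1, a nucleoside transporter gene, measured 105, 105 and 109 FPKM in control and 74.4, 70.6 and 69.6 FPKM in cKO. Selenom, a selenoprotein gene, measured 91.6, 103 and 114 FPKM in control and 68.4, 70.3 and 65.0 FPKM in cKO.

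Markers of other cell types moved with genotype in the same libraries. Of 10 such lists, 8 had medians above 0, between 0.23 for astroglia and 0.68 for endothelium. In these 8 lists 53 of 67 tested markers were called higher and 2 lower (Cspg4 counts in 2 lists), beside 13.4% higher and 5.74% lower over all tested genes. No marker was at 0 in all libraries. The summed level of the endothelial markers, 13 of 13 higher, was between 160 and 174 FPKM in control and between 278 and 295 FPKM in cKO. That of the GABAergic list, 9 of 12 higher and 2 lower, was between 145 and 157 FPKM in control and between 186 and 206 FPKM in cKO. GABAergic neurons derive from Ptf1a-expressing cells of the ventricular zone and not from the Atoh1 lineage, and Ptf1a was at 2.27 and 3.66 FPKM (adjusted p = 0.0044). The 2 lower markers of the GABAergic list were Lhx1, its most abundant gene (39.1 and 31.8 FPKM, adjusted p = 0.010), and Reln (24.1 and 18.6 FPKM, adjusted p = 0.0034). The choroid plexus list moved the other way, from sums between 1409 and 1495 FPKM to sums between 693 and 770 FPKM, with 7 of 9 markers lower and 1 higher. Ttr made up most of those sums, with means of 1370 FPKM in control and 665 FPKM in cKO. The 1 higher marker was Otx2 (19.4 and 22.3 FPKM, adjusted p = 0.024). None of the 5 tested markers of unipolar brush cells and cerebellar nuclei, which share the rhombic lip origin, was called by limma, and Eomes measured 9.16 and 8.37 FPKM. The part of these cell types in the lower levels of Barhl1, Neurod1 and Pax6, and in the changes of Id3, Id4, Hes5, Sox2, Sox9, Nes, Tubb3 and the other genes above, was not tested. The summed FPKM of the 10 members was between 1004 and 1119 in control and between 870 and 884 in cKO.

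**Figure D4:**
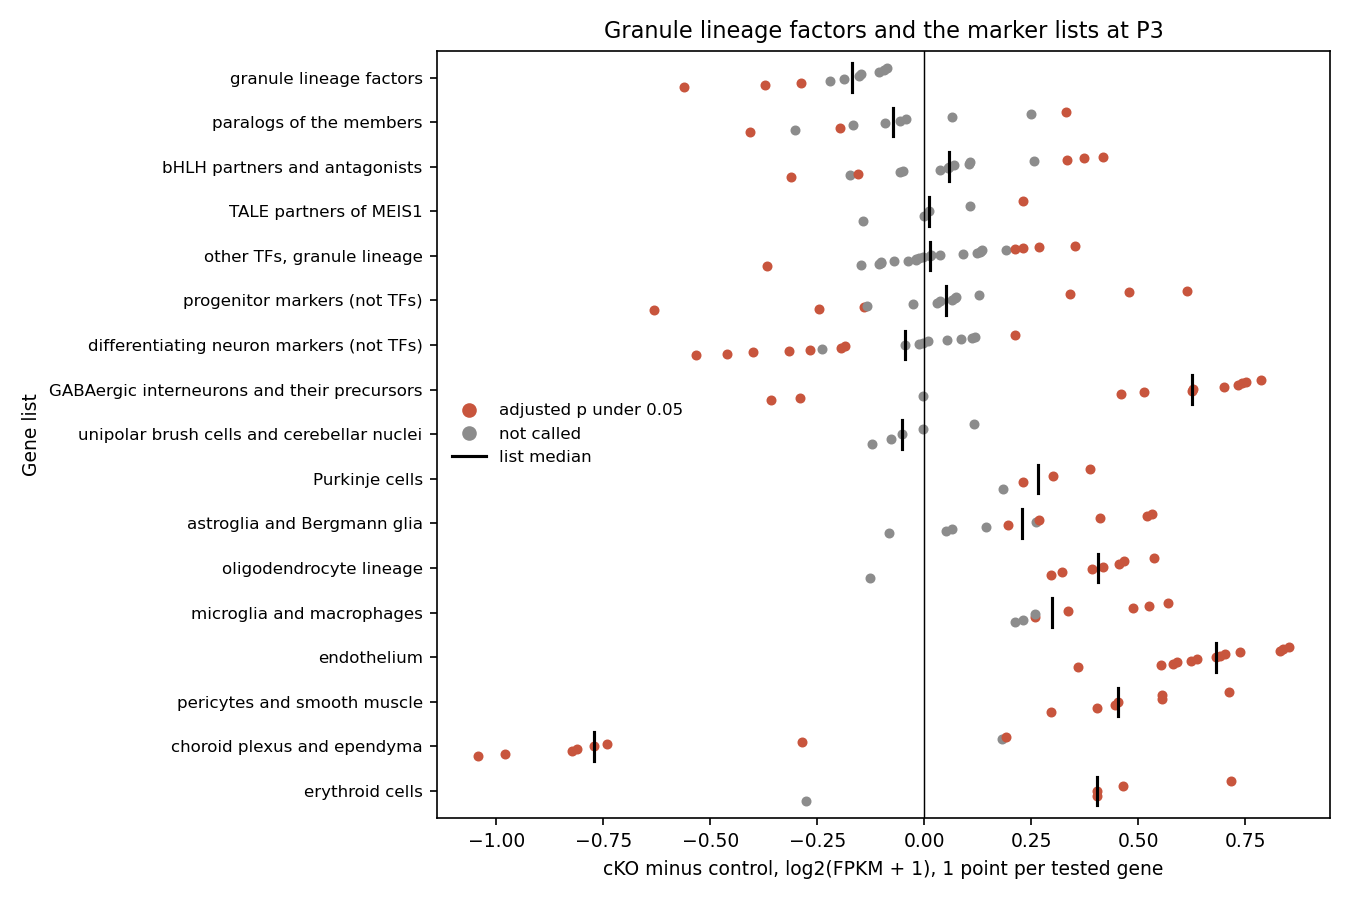
Difference of cKO minus control in log2(FPKM + 1) for each tested gene (points, coloured where the adjusted p was under 0.05) of the granule lineage factors, related gene lists and marker lists of other cell types, with black bars at list medians. The 10 factors all lie below 0 with a median of -0.17, the endothelial markers have a median of 0.68, and the choroid plexus markers have one of -0.77.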

How the data were processed

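RNA was measured by poly(A)-selected, dUTP-marked, paired-end sequencing, per the labels' protocols. StringTie 2.1.6, HISAT2 2.2.1, cutadapt 1.9, edgeR, DESeq2 and the build mm10 are listed without roles, per the submitters' processing notes. Strand use, filters and annotation were not given in the sources used here. The authors deposited 1 table with an FPKM value per gene and library. It also holds the authors' comparison, which per the file headers gives a p-value, an adjusted p-value, a test score, a log2 fold change, that change's standard error and a mean signal. Columns not named WT were taken as cKO, since the labels list no other P3 group. The FPKM values were multiplied by the deposited gene length, and the smallest product above 0 in each library was taken as 1 read. In that unit all values were whole reads within 0.02 reads, which gave the depths. A count of 3 reads in 1 kb corresponds to between 0.057 and 0.10 FPKM, for counting error only. Of 29560 genes shared by identifier with a GRCm38 annotation, 614 had identical positions, and no build is stated here for the deposited ones. The promoter windows are on GRCm38.p6.

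Since FPKM are not counts, limma 3.58.1 in R 4.3.3 was run on log2(FPKM + 1) with an intensity trend and no covariates, on the 13538 genes that averaged 1 FPKM or more, with Benjamini-Hochberg adjustment. It called 2590 genes, 777 lower and 1813 higher. The share higher was 70.0%, and it was 81.7% with TPM scaling, 56.8% with quantile normalization, 53.1% after removal of a length trend and 54.2% with voom. Single members were also tested with an exact permutation test. Replicate pairs differed beyond counting noise (chi-square over its degrees of freedom ran from 4.38 to 9.71), so no pair looked like the same library sequenced again. That comparison cannot tell whether libraries came from the same animal or RNA pool. The fit was tested on 1 simulated draw, with fewer changed genes than were called here and the same setting of replicate spread for every gene. There, false calls made up a larger share of the calls than the threshold of 0.05 allows. The adjusted p-values printed from limma are therefore likely too small, by an amount that a draw with these settings cannot give. The members and gene lists were chosen with earlier results of these data known. Named were Znhit3, the members, up to 5 called genes per related list by smallest p, or the most abundant where none was called, the most abundant and the strongest called marker of each other cell type, genes antisense to or nearest to a member, and the 5 profiles nearest to Barhl1. Not all of these are printed, and the paralog list is reported only in part here. Ptf1a, Reln, Otx2, Tiam1, Dcx, Barhl2, Zic5, Meis2, Gli1, Gli2, Mycn, Ptch1, Id1, Id2, Huwe1, the E protein genes, Gabra6, Cbln3 and Grin2c were added after their values were seen. Alternatives were another pseudocount, other filters and scalings, limma without the trend, array weights, voom with TMM scaling, a replicate block, each library left out and, chosen after seeing the data, protein-coding genes only.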

Additional observations from a re-analysis of the deposited data

How the results depend on the processing

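The count of genes called among all tested genes was 1271 with no filter on low values and 1542 with the replicate block, and it ran from 1207 to 2195 when 1 library was left out. It was 1331 without control replicate 2 and 1490 without control 3, and leaving out cKO replicate 2 or 3 gave 1207 or 1553.

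The count of lower members was 6 after removal of a gene length trend, 5 with array weights (adding Zic2 and Insm1) and 8 with voom on recovered reads, and it was 3 or 4 when 1 library was left out. The median of the members ran from -0.21 to -0.13 over the libraries left out and was -0.13 with TPM scaling. The cause of these shifts was not tested. With the replicate block 3 members were lower as before and no member changed its call. Same-numbered libraries did not deviate together, with correlations of -0.02, 0.04 and -0.10 between their deviations from the group means, so the numbers were not taken as pairs. Zic1 had a difference of 0.0083 with quantile normalization, and Fabp7, an astroglial gene not called, had 0.0031. Pax6os1 had 0.0091 with TPM scaling, 0.030 after removal of a length trend and ranged from -0.12 to 0.070 with 1 library left out, being above 0 when that was control 1, cKO 1 or cKO 2. Etv1, at 2.19 FPKM in control, was under the filter of a mean of at least 5 FPKM.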
